A study of Mus musculus with 15 samples.

Results

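Of 29372 genomic regions that held a Myc peak at any of 6 times in 3T9-MycER mouse fibroblasts, 1567 were called at 2 h after 4-hydroxytamoxifen (OHT) and at no other time. They were chosen by peak calls: the 6 Myc peak lists were merged where peaks shared at least 1 bp, and regions with a peak in the 2 h list and in no other Myc list were kept. They made up 5.34% of all Myc regions and 5.82% of the 26912 regions with a 2 h peak, and each came from 1 peak. At every other time fewer regions were called at that time alone, namely 82 for 0 min, 373 for 10 min, 660 for 20 min, 177 for 30 min and 329 for 4 h. The other 5 Myc lists hold no value for these regions, which means that no peak passed the caller's cutoff there, not that Myc was at 0.

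Chromatin immunoprecipitation with sequencing (ChIP-seq) was run for Myc (antibody N262) and RNA polymerase II (RNAPII, antibody N20) in fibroblasts of mouse embryos at day 13.5, with genotype c-myc flox/flox, infected in culture with MycER. The 0 min libraries had no OHT, and those at 10, 20 and 30 min and at 2 and 4 h followed 400 nM OHT. Miz1 (antibody 10E2), the zinc finger protein encoded by Zbtb17, was profiled in these fibroblasts without OHT and in splenic B cells of wild-type C57BL/6 mice aged 6 to 8 weeks, taken with B220 beads. All fibroblast groups carry the floxed alleles and the introduced MycER, and endogenous Myc and MycER cannot be told apart in the peaks. Each group held 1 library, so there is no replicate check and no p-value, and the Wilson 95% intervals given in parentheses cover counting error only.

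Myc pairs with Max through a helix-loop-helix and leucine zipper domain, and the pair binds the hexamer CACGTG, the canonical E-box, and related hexamers. MycER is a fusion of Myc to a hormone-binding domain that keeps it inactive until OHT binds. Myc is known for occupying promoters that RNAPII already uses and, when abundant, distal sites too. AP-1, the dimer of Fos and Jun family proteins, binds TGANTCA (N is any base) and is known for marking enhancers in fibroblasts.

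The sequences of 15 regions are shown because the letters at their summits carry the description that follows. Each is the 201 bp centred on the 2 h summit, on the plus strand of mm9 (NCBIM37), with CACGTG and TGANTCA in capitals. They were picked by rank within the rules for named regions, but not always the first ranks, so they do not show how frequent a motif is. The split by motif was set after the values had been seen. The first 6 are the regions of highest fold enrichment that hold CACGTG within 100 bp of the summit, and 4 of them also hold the AP-1 motif.
Arg2 intron (chr12:80233168-80233368): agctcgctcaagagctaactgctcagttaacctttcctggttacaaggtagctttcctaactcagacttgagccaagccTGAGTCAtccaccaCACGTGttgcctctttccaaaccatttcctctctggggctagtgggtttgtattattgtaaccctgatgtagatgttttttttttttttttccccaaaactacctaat
Between genes, nearest Dnahc14 (chr1:183568597-183568797): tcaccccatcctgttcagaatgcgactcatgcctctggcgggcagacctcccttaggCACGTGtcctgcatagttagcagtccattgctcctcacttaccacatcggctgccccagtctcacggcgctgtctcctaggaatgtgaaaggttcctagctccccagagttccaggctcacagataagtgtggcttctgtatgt
Ank2 intron (chr3:126739136-126739336): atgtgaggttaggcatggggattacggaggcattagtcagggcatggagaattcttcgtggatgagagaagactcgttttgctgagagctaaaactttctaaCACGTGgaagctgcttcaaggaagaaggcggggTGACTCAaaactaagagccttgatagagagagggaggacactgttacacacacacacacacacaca
Intron of 1700047F07Rik, nearest Lrp8 (chr4:107430177-107430377): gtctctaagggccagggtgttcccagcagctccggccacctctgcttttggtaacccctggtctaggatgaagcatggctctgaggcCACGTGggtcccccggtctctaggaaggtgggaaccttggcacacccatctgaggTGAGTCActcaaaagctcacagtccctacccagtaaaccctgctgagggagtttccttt
Between genes, nearest Sox5 (chr6:143510219-143510419): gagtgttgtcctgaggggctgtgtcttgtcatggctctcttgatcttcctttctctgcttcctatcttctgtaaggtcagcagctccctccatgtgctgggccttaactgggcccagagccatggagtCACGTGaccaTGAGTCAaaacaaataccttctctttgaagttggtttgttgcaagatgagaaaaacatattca
Between genes, nearest Rpl28-ps4 (chr6:117142716-117142916): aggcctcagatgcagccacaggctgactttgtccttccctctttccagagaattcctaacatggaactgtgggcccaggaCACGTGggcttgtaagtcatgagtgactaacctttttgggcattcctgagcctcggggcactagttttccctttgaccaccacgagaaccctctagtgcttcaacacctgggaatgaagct
The next 3 have ranks 1, 2 and 4 by fold enrichment, and the region of rank 3, in Ctif, holds 2 AP-1 motifs and is not printed. Of those shown, the first holds an AP-1 motif and the others neither motif.
Between genes, nearest Atp6v0e2 (chr6:48480024-48480224): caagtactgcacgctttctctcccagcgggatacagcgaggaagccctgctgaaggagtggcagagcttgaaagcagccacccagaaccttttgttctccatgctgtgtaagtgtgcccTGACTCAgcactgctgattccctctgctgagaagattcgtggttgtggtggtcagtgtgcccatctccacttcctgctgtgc
Between genes, nearest Gadd45g (chr13:52051404-52051604): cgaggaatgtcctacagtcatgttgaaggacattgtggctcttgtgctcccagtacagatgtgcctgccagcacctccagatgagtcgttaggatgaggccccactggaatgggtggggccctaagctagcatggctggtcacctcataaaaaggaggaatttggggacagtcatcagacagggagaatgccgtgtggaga
Gorasp2 intron (chr2:70542584-70542784): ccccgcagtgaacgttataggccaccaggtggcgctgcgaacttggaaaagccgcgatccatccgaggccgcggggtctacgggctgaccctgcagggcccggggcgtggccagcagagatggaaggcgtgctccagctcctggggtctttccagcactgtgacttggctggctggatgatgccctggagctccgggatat
Nsmce2 and Trib1, of ranks 1 and 5, stand for the regions with the most tags, on chromosome 15. The regions of ranks 2, 3 and 4 hold neither motif and are not printed.
Nsmce2 intron (chr15:59229064-59229264): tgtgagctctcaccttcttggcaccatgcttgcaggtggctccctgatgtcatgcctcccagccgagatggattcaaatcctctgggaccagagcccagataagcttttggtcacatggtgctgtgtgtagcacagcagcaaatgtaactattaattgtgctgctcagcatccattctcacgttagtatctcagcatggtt
Intron of Nsmce2, nearest Trib1 (chr15:59387098-59387298): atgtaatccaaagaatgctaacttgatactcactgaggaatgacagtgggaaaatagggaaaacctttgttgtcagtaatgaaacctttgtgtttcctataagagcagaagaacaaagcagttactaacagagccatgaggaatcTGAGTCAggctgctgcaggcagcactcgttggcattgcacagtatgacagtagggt
The following pair overlapped a fibroblast Miz1 peak.
Between genes, nearest A230072I06Rik (chr8:12073706-12073906): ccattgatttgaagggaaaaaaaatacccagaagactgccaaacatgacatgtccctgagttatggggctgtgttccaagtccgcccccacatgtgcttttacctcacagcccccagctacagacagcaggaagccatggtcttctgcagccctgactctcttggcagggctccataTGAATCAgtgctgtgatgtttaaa
2410066E13Rik intron (chr6:54648658-54648858): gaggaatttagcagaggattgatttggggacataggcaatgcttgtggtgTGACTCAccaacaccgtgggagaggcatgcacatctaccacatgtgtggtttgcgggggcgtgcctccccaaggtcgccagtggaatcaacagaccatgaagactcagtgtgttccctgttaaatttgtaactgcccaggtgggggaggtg
The last pair overlapped a narrow RNAPII peak at 2 h and none at 0 min. They have ranks 4 and 6 by Myc fold among such regions. Those of ranks 1, 2, 3 and 5 hold neither motif and are not printed.
Nvl intron (chr1:183062242-183062442): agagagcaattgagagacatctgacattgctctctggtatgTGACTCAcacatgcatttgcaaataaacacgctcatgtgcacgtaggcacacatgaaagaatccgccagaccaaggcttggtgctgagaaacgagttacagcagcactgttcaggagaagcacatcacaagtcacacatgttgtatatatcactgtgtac
Dido1 intron (chr2:180430081-180430281): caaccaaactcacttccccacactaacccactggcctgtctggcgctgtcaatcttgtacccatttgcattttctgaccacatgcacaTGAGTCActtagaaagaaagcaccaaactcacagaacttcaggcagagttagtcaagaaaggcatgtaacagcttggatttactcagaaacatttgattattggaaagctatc

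Regions called only at 2 h were weak peaks of the 2 h list. Their tags, the raw count of ChIP reads in the peak, ran from 26 to 217 with a median of 56, against a median of 141 in all 27388 peaks of the list. Fold enrichment over the local control background ran from 3.25 to 13.2 with a median of 6.63, against 13.1 in the list. The score, which grows with the significance the caller gave (80 stands for a p of 1e-08, the cutoff), had a median of 99.4 against 448. By tags 1408 of the regions (89.9%) lay in the lowest 25% of the list, 7 reached its median and none reached its upper quartile. The list was cut into 10 equal groups by score. In the lowest group 36.7% of peaks (34.9 to 38.5) were called only at 2 h, in the next 16.0% (14.7 to 17.4), in the third 3.98% and in the fourth 0.548%. In each of the upper 6 groups the count was 0, with an upper bound of 0.140%. These values come from the list that chose the regions and describe them without a test.

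**Figure D1:**
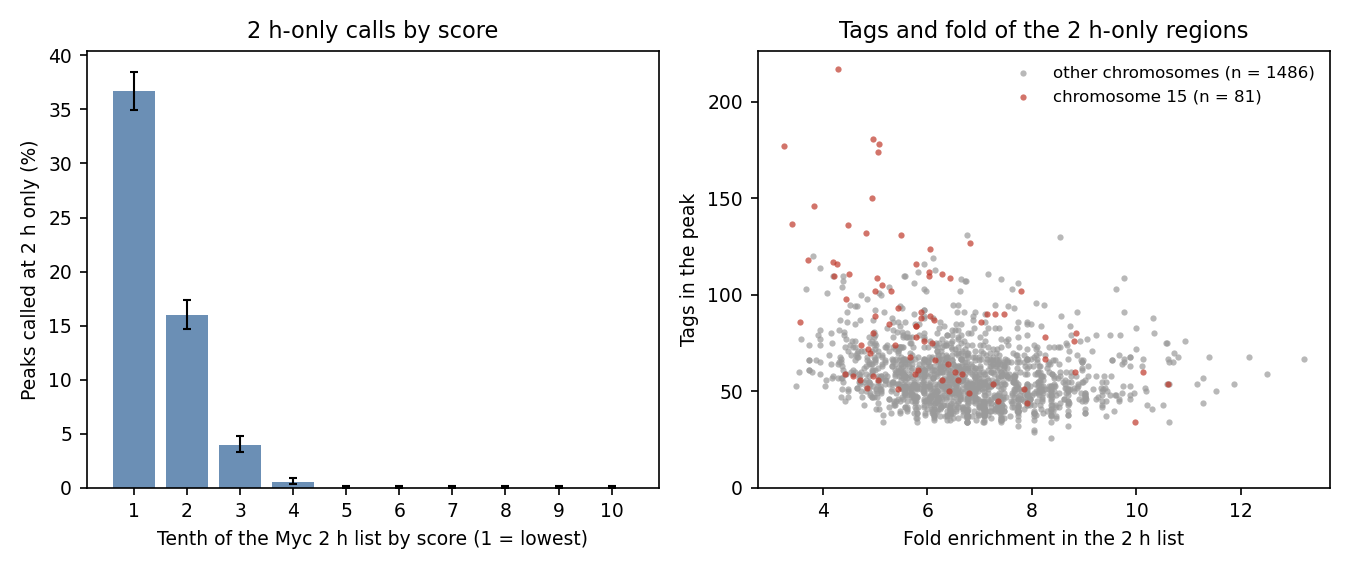
Left, the percent of peaks called at 2 h only (bars, with Wilson 95% intervals) in 10 equal groups of the Myc 2 h list by score. It falls from 36.7% in the lowest group to 0 from the fifth on. Right, tags in the peak against fold enrichment for the 1567 regions called only at 2 h, 1 point each, with the 81 on chromosome 15 in red. The points with the most tags are red and lie at low fold enrichment.

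The Myc libraries differed little in depth, from 28132063 to 33431447 tags, and the 2 h library with 33149982 tags was not the deepest. The 2 h list was nevertheless the longest, with 27388 peaks against 19995 to 25702 in the others, and it had the highest median score. When the 19995 highest-scoring peaks of every list were taken, 223 regions were called only at 2 h, fewer than at 0 min (706), 10 min (343), 20 min (266), 30 min (317) or 4 h (368). With a score of at least 100 asked in every list, 1490 regions were called only at 2 h and 617 only at 20 min. These 1490 are not the same set under a stricter cutoff. With that score asked of the 2 h list alone, 767 regions were called only at 2 h. The rest of the 1490 also had a peak in another list, left out there because its score was under 100. The 2 h list thus had both the most peaks and the most regions called once, and the part of list length in that number was not tested beyond these values.

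The closest regions inside the rule lay 10 bp from a peak of another list, near Smarcal1, and 22 bp from one near Pdxp and near Hk2. Among regions called at 2 h and 1 other time, the smallest overlaps were 484 bp near Fhl2, with the 20 min list, and 632 bp near Fgf1, with the 4 h list. Next was 641 bp near Lamp2, with the 30 min list. The 484 bp near Fhl2 are the whole length of that 2 h peak. Regions shared with more lists were not ranked by overlap. The lowest score inside was 80.05, near Hnrnpa3 and near Bsn. The median gap to the nearest peak of another Myc list was 9923 bp, and 168 regions (10.7%) had one under 1000 bp.

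Most of the regions lay away from promoters. A summit within 1000 bp of an annotated transcription start site (TSS) was found for 229 of 1567, or 14.6% (13.0 to 16.4), against 35.7% of all Myc regions and 49.5% of the 17674 regions called at all 6 times. Of the others, 699 summits lay in introns, 585 between genes, 21 in 3′ UTRs, 20 in coding exons and 12 in exons of non-coding transcripts, and 1 in a UTR of unstated side. The median distance to a protein-coding TSS was 18364 bp, against 2349 bp for regions at all 6 times, and 389 regions (24.8%) lay more than 50 kb away, against 22.2% of all Myc regions. Of the regions called only at 10 min, 20 min and 4 h, 34.0%, 38.8% and 32.5% did. The promoter share was 7.51% (5.24 to 10.6) for regions called only at 10 min, 8.33% (6.46 to 10.7) at 20 min and 8.51% at 4 h, and their intervals lay below that of the 2 h regions. Regions called only at 30 min, at 16.9% (12.1 to 23.2), and the 1483 called at 2 h and 1 other time, at 14.0% (12.3 to 15.8), did not stand apart from them. Among peaks with a score under 100, a comparison added after the data had been seen, the share was 13.1% (11.0 to 15.6) for 2 h, 5.30% for 10 min, 8.77% for 20 min, 16.8% for 30 min and 8.68% for 4 h.

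**Figure D2:**
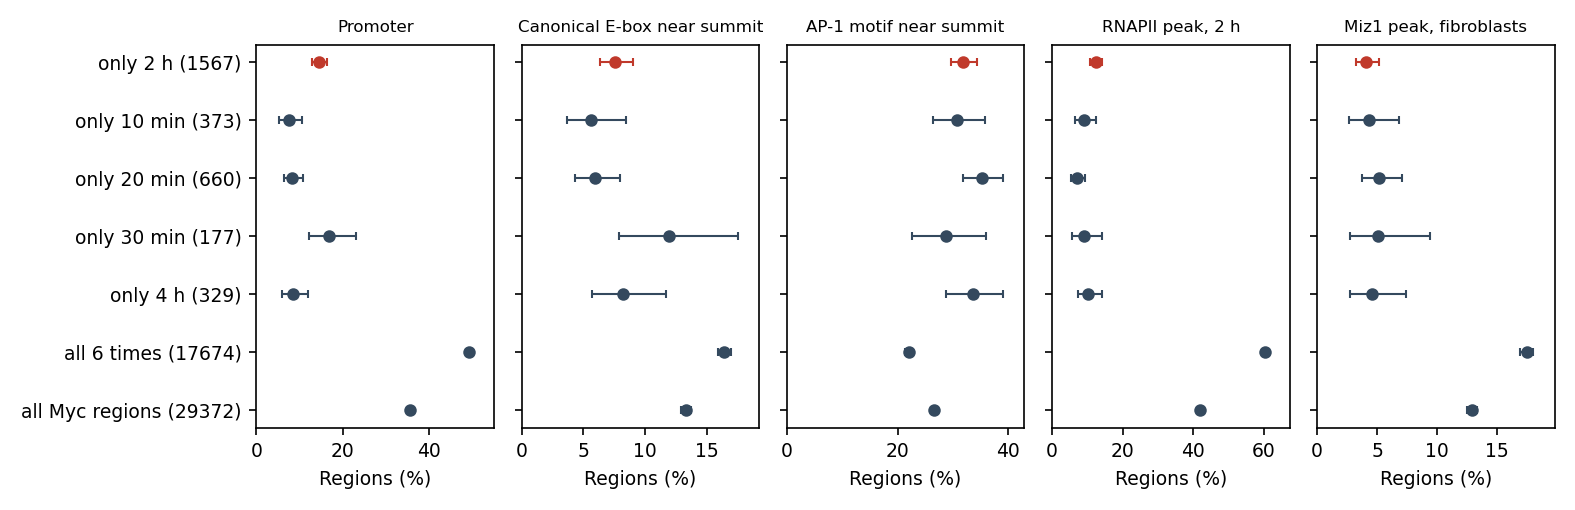
Percent of regions (points, with Wilson 95% intervals) at promoters, with the canonical E-box or the AP-1 motif within 100 bp of the summit, and under a narrow RNAPII peak at 2 h or a fibroblast Miz1 peak. Rows are sets of Myc regions with their number. The regions called only at 2 h, in red, lie near the other sets called once and far from the regions called at all 6 times.

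The 229 promoter regions included 168 at protein-coding promoters, over 174 genes, and 61 at promoters of other transcripts only. For 126 of the 174 genes no Myc promoter peak was called at any other time, and for 48 a separate one was. The rule leaves out regions that overlap a peak of another list, so the 126 are in part set by it. The count is a description, with no comparison share, and does not measure new binding. The highest by fold was the promoter of Tmem45a, which encodes a transmembrane protein, with 44 tags and 11.27-fold enrichment. The promoter of Dmpk, the kinase gene of myotonic dystrophy, reached the same fold with 57 tags. Morn4 followed with 10.32-fold and 88 tags in its 5′ UTR, and Kcnh6, a potassium channel gene, with 9.88-fold and 46 tags. The peak at A530084C06Rik (9.73-fold, 64 tags) had its summit in the coding exon of Foxq1, a forkhead factor gene. Hsd17b14, Gm16532 and Htr3a, the last a serotonin receptor gene, completed the 8 highest with 9.66-, 9.34- and 9.34-fold. None of these 8 held CACGTG or the AP-1 motif within 100 bp of the summit, and 3 of them, Dmpk, A530084C06Rik and Gm16532, overlapped a narrow RNAPII peak at 2 h.

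By fold enrichment the highest region lay between genes, 7444 bp from the TSS of Atp6v0e2, a gene of a proton pump subunit, with 67 tags and 13.2-fold. The next, with 59 tags and 12.5-fold, lay 109457 bp from Gadd45g, a growth arrest gene. A region of 12.16-fold in an intron of Ctif had Smad7, the inhibitor of TGF-beta signalling, as its nearest TSS at 76825 bp. An intron of Gorasp2, a Golgi stacking protein gene, held 11.86-fold, a coding exon of Nova2, a neuronal splicing factor gene, 11.52-fold, and an intron of Grip2 11.39-fold. The region nearest to Zeb2, a repressor gene of epithelial genes, reached 11.15-fold at a distance of 1298215 bp. Among the 10 highest by fold, 3 held the AP-1 motif, 1 held CACGTG and 4 overlapped a narrow RNAPII peak at some time.

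Ranked by tags, the regions were led by chromosome 15. An intron of Nsmce2, a SUMO ligase gene, had 217 tags at 4.3-fold, the highest count, at percentile 66.7 of the 2 h list by tags and 0.425 by fold. An intron of Pvt1, the long non-coding gene beside Myc, had 181 tags at 4.96-fold, 119388 bp from the TSS of Myc, and a second region in Pvt1 had 137 tags at 3.41-fold. An intron of Rai14 held 178 tags at 5.08-fold. Trib1, a pseudokinase gene, was nearest to a region of 177 tags (3.25-fold, the lowest fold of all the regions) and to another of 174 tags (5.06-fold). Regions near Tmem65 (150 tags), Ywhaz, a 14-3-3 gene (146), Angpt1, a ligand of the receptor Tie2 (136), Parp10 (132) and Trio (131) followed. The only 1 of these 12 regions off chromosome 15 was at the promoter of the microRNA genes Mir29a and Mir29b-1 on chromosome 6, with 131 tags at 6.75-fold.

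The 81 regions on chromosome 15 (5.17% of the 1567) had a median of 85 tags and 5.78-fold, against 55 tags and 6.66-fold for the 1486 elsewhere. Tags are counted over the whole peak. The 81 had a median length of 1384 bp, against 1204 bp for all 1567, and median tags per kb were 56.7 against 45.9 elsewhere. At least 100 tags were found in 28 of the 81 and in 33 of the 1486. All 7 regions that reached the list's median of tags, and 37 of the 100 with the most tags, lay on chromosome 15. On chromosome 19 the median was 71 tags, and on the other chromosomes it was 46 to 60. All 2 h peaks showed the same order, with medians of 206 tags on chromosome 15 and 138 elsewhere, and so did the 0 min list, with 181 and 112. Why tags were higher and fold lower there was not tested. Rank by tags and rank by fold thus named different regions, and none of the 10 highest by fold lay on chromosome 15.

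**Figure D3:**
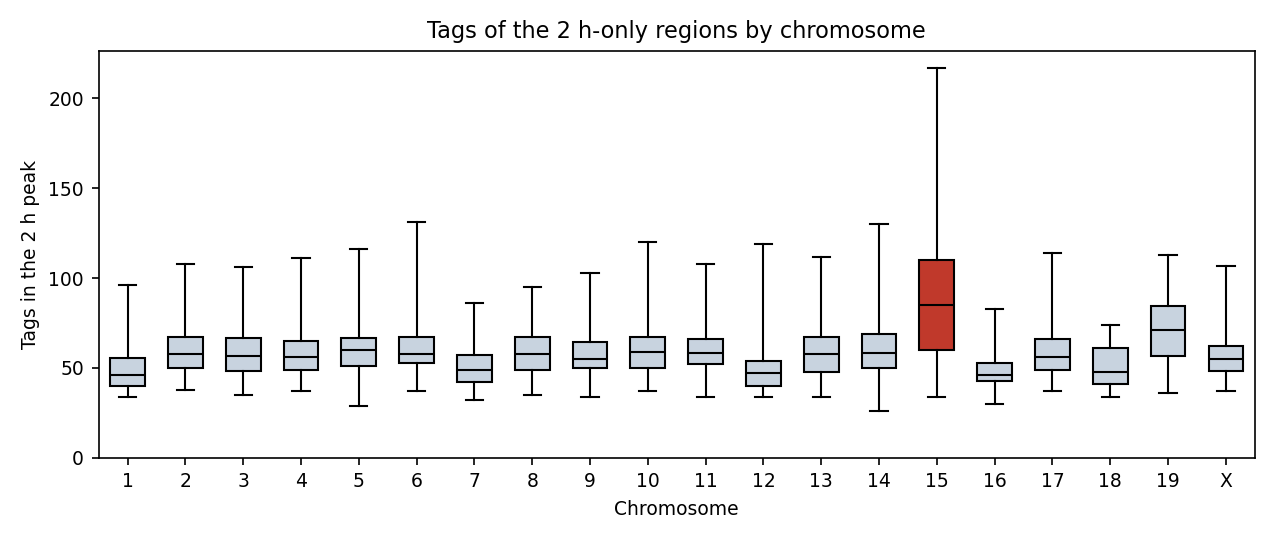
Tags in the 2 h peak of the regions called only at 2 h, by chromosome. Boxes span the quartiles with the median as a line, and whiskers reach the lowest and highest region. Chromosome 15, in red, has the highest median (85 tags) and the highest region (217 tags).

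CACGTG lay within 100 bp of the summit in 119 of 1567 regions, or 7.59% (6.38 to 9.01), as in the Arg2 and Ank2 sequences above. The share was 13.3% of all Myc regions and 16.4% of those called at all 6 times. In flanking windows of 201 bp, placed 1000 bp to the left and right of the same summits, it was 2.39% (1.91 to 2.99), and in the 201 bp around 45974 annotated TSSs 5.22%. It was 5.63% (3.71 to 8.45) for regions called only at 10 min, 5.91% (4.35 to 7.98) at 20 min, 11.9% (7.89 to 17.5) at 30 min and 8.21% (5.70 to 11.7) at 4 h, and these intervals overlap that of the 2 h regions. The median E-box lay 25 bp from the summit. Away from promoters the share was 7.92% (6.59 to 9.49), against 14.7% of the regions at all 6 times that lie away from promoters.

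Related hexamers were read in the same windows on both strands, and all are forms of CANNTG or differ from CACGTG by a base. CATGTG was found in 31.3% (29.1 to 33.7) of the 2 h regions, in 17.2% of their flanks and in 27.3% of all Myc regions. In regions called only at 0, 10, 20 or 30 min or 4 h it stood at 36.6%, 29.8%, 30.8%, 40.1% and 35.0%. In the 2 h regions, their flanks and all Myc regions, CACGAG was found in 7.28% (6.09 to 8.67), 2.43% and 8.18%. CACGCG was found in 2.74% (2.04 to 3.68), 0.766% and 9.56%. CACGAG stood at 8.54% (4.20 to 16.6) in regions called only at 0 min, at 2.95% (1.65 to 5.20) at 10 min, at 5.30% (3.84 to 7.29) at 20 min, at 2.26% (0.882 to 5.67) at 30 min and at 4.56% (2.78 to 7.39) at 4 h, and at 9.65% at all 6 times.

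Arg2, the mitochondrial arginase gene, held the strongest of the E-box regions by fold, with 76 tags and 10.93-fold, in an intron 1504 bp from the TSS. Its CACGTG lay 5 bp and its AP-1 motif 18 bp from the summit. The region near Dnahc14 reached 10.63-fold with 54 tags, and the intron of Ank2, which encodes ankyrin-B, 10.56-fold with 75 tags. Regions nearest to Lrp8, a reelin receptor gene, to Sox5, an HMG-box factor gene, and to Rpl28-ps4 had 10.18-, 9.96- and 9.88-fold. Tnfsf11, the gene of the osteoclast factor RANKL, and Gpatch3 completed the 8 with 9.75- and 9.59-fold, their E-boxes 75 and 64 bp from the summit. None of the 8 overlapped a narrow RNAPII peak at any time, and 4 held the AP-1 motif as well.

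The AP-1 motif was more frequent than the E-box. TGANTCA lay within 100 bp of the summit in 500 regions, or 31.9% (29.6 to 34.3), against 4.91% of the flanks, 4.00% of TSS windows and 26.6% of all Myc regions. Its median distance from the summit was 42 bp. The share was 18.3% (11.4 to 28.0) in the 82 regions called only at 0 min, an interval below that of the 2 h regions. It was 30.8% (26.4 to 35.7) at 10 min only, 35.3% (31.8 to 39.0) at 20 min, 28.8% (22.6 to 35.9) at 30 min and 33.7% (28.8 to 39.0) at 4 h, and 22.0% at all 6 times. Away from promoters it was 34.6% (32.1 to 37.2) at 2 h only and 38.4% (37.3 to 39.4) at all 6 times, while at promoters it was 16.2% and 5.34%. Both motifs were found in 33 regions (2.11%) and neither in 981 (62.6%), against 2.45% and 62.6% of all Myc regions. GGAATG, the TEAD motif, stood at 17.5%, against 9.89% in the flanks and 15.1% of all Myc regions, and TGTGGTT, the RUNX motif, at 10.1%, against 5.14% and 8.54%. In regions called only at 0, 10, 20 or 30 min or 4 h, TEAD stood at 8.54%, 16.6%, 20.3%, 12.4% and 16.1%. RUNX stood there at 6.10%, 11.0%, 14.1%, 8.47% and 11.6%. GGGCGG, the GC box, stood at 8.87%, against 3.70% and 19.5%. The median GC content of the 201 bp was 49.8%, against 56.7% for regions at all 6 times.

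**Figure D4:**
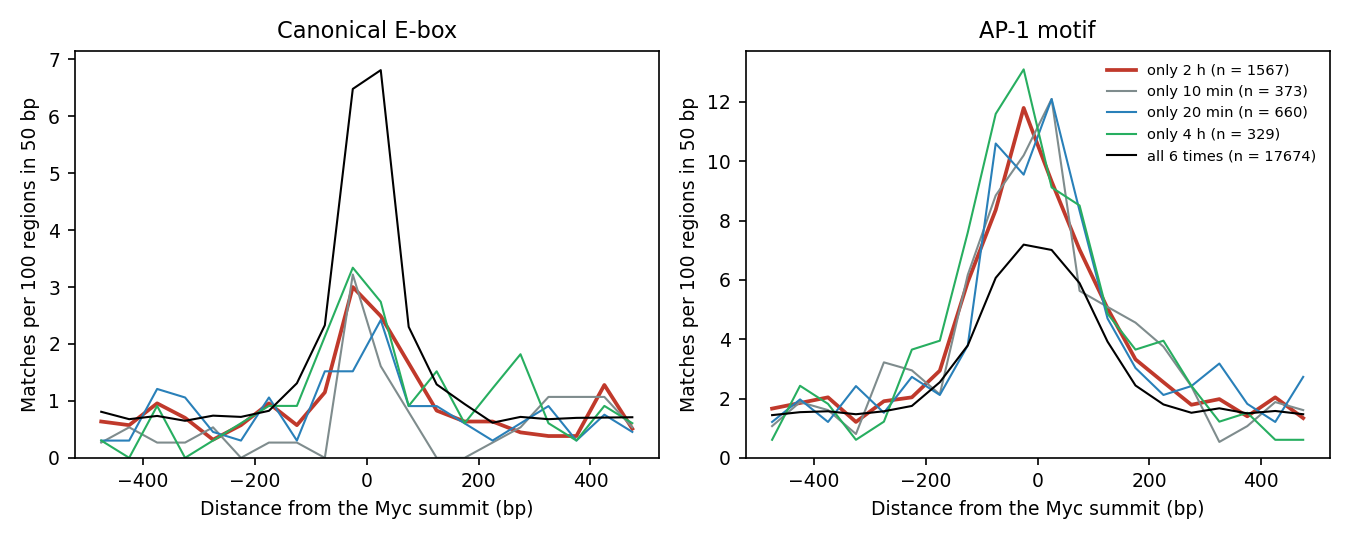
Matches per 100 regions in bins of 50 bp, against distance from the Myc summit, for the canonical E-box (left) and the AP-1 motif (right). Lines are sets of regions, with those called only at 2 h in red. In these, the 50 bp before the summit hold 3.00 E-boxes and 11.8 AP-1 motifs per 100 regions.

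A narrow RNAPII peak at 2 h overlapped 195 of the 1567 regions, or 12.4% (10.9 to 14.2), against 42.0% of all Myc regions and 60.4% of those at all 6 times. The RNAPII list of 0 min gave 13.6%, that of 10 min 15.9%, that of 20 min 18.4%, that of 30 min 13.0% and that of 4 h 12.6%. The 20 min RNAPII library was the deepest, with 36396286 tags against 15276996 to 19999678 in the others. Over all Myc regions the lists of 0, 10, 20 and 30 min and of 4 h gave 44.2%, 45.5%, 49.1%, 43.9% and 41.2%, with the highest share at 20 min here too. For regions called only at 10 min the 2 h share was 9.12% (6.60 to 12.5), for those at 20 min 7.12% (5.40 to 9.34) and for those at 4 h 10.3% (7.49 to 14.1). At promoters 26.6% (21.3 to 32.7) of the 2 h regions overlapped RNAPII at 2 h, against 92.4% at all 6 times, and away from promoters 10.0% (8.52 to 11.7) against 29.2%. An RNAPII peak at all 6 times was found over 114 regions (7.28%, against 35.9% of all Myc regions). One at 2 h and not at 0 min lay over 39 (2.49%, against 2.38%), and one at 0 min and not at 2 h over 57 (3.64%, against 4.61%).

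**Figure D5:**
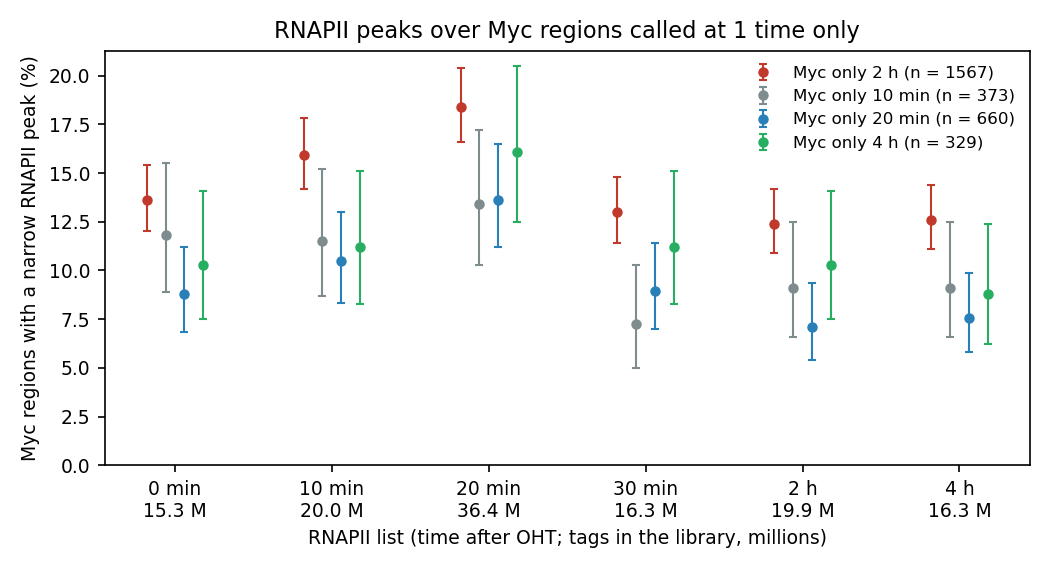
Percent of Myc regions that overlap a narrow RNAPII peak (points, with Wilson 95% intervals), by RNAPII list, with the tags in each RNAPII library under its time. Colours are Myc regions called at 1 time only. Those called only at 2 h, in red, lie between 12.4% at 2 h and 18.4% at 20 min.

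Of the 39 regions with RNAPII at 2 h and not at 0 min, the highest by Myc fold lay in an intron of Fhl2, which encodes a LIM domain cofactor, with 63 tags and 9.88-fold. RNAPII peaks over it had 44.2-fold at 10 min, 47.5-fold at 20 min, 47.1-fold at 30 min and 5.79-fold at 2 h, with none at 0 min or 4 h. It is the middle of 3 regions near Fhl2 called only at 2 h that lie side by side. The left one overlapped RNAPII at 0 min and at 2 h, so the missing 0 min call depends on where the peaks were split. The region at A530084C06Rik and Foxq1 had RNAPII of 5.84-fold at 10 min and 7.0-fold at 2 h. In an intron of Frs2, with Cct2 as the nearest TSS, it was 4.98-fold at 10 min, 4.26-fold at 20 min and 5.06-fold at 2 h. Nvl, which encodes a ribosome assembly ATPase, held 84 Myc tags at 8.73-fold in an intron, with RNAPII of 3.39-fold at 20 min and 4.14-fold at 2 h. Scml4 and Dido1 completed the 6 with Myc folds of 8.71 and 8.44. All 6 had an RNAPII peak at 10 or 20 min too, so 2 h was not the first time at which RNAPII was called there. Among the regions with the most tags, the Trib1 region of 177 tags and the Mir29a region had RNAPII at every time, with 38.9- and 37.1-fold in the 0 min list and 6.8- and 16.8-fold in the 4 h list. Folds of different lists are the authors' own for each list and do not measure a change.

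Fibroblast Miz1 peaks, taken without OHT, overlapped 64 regions, or 4.08% (3.21 to 5.18), against 12.9% of all Myc regions and 17.5% of those at all 6 times. The share was 4.29% for regions called only at 10 min, 5.15% at 20 min and 4.56% at 4 h, all with intervals that overlap. B cell Miz1 peaks overlapped 17 regions, or 1.08% (0.678 to 1.73), against 4.41% of all Myc regions. Peaks of both Miz1 lists lay over 8 regions, or 0.511% (0.259 to 1.00), against 2.14% of all Myc regions. The highest by Myc fold were 75 tags and 10.59-fold near A230072I06Rik, with Miz1 of 3.7-fold, and 43 tags and 10.2-fold in an intron of 2410066E13Rik, with Miz1 of 5.78-fold. At the promoter of Tnni3, the cardiac troponin I gene, Myc had 32 tags and 8.69-fold and Miz1 10.05-fold, and a B cell Miz1 peak lay there too. The promoter region of 1700054O19Rik had 130 tags, 8.53-fold and Miz1 of 6.7-fold, and its score of 296 was the highest of all the regions. A region in an intron of Ctif had 41 tags, 8.37-fold and Miz1 of 5.21-fold. Of the 6 highest regions none held CACGTG, 4 held the AP-1 motif and none overlapped RNAPII.

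The 1567 regions had 1410 protein-coding genes as their nearest, and 1268 of these had 1 region. Foxp1, a forkhead repressor gene, Lama2, a laminin chain gene, and Zfp36l2, which encodes an mRNA decay factor, had 4 each. Foxp1 was nearest to 20 Myc regions in all, Lama2 to 10 and Zfp36l2 to 20. All 4 Lama2 regions held the AP-1 motif, the strongest with 65 tags and 10.7-fold in its intron. Adam12, a metalloprotease gene, Bcat1, which encodes an enzyme of branched-chain amino acid breakdown, and Ergic1 had 3 each. They come first by symbol among 9 genes with 3, which also hold Fhl2, Myc, Myh9, Prex1, Spata13 and Tnfsf11. Of the 1410 genes, 60.1% (57.5 to 62.6) had an RNAPII promoter peak at 2 h, against 71.7% of the genes nearest to any Myc region and 46.3% of 22232 protein-coding genes. With regions away from promoters only, the share with RNAPII was 62.0% (59.3 to 64.6), against 59.1% for all Myc regions and 62.1% at all 6 times. For regions called only at 10 min, 20 min and 4 h it was 55.2%, 59.9% and 63.9%. A region at a promoter gives its own gene a Myc promoter peak, so the share with Myc is given for regions away from promoters. It was 68.5% (65.9 to 71.0) of 1260 genes at 2 h, against 65.2% for all Myc regions, 68.7% at all 6 times, 66.0% (60.7 to 70.8) at 10 min only, 66.5% (62.5 to 70.2) at 20 min only and 74.4% (69.2 to 79.0) at 4 h only.

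Ribosome biogenesis genes had 1 such region of 43 Myc regions, 10252 bp from Fbl, the nucleolar methyltransferase gene, cytosolic ribosomal protein genes 0 of 44 and nucleotide and polyamine synthesis genes 0 of 40. Over all Myc regions the share was 5.34%. These lists hold few regions, and no gene list was tested against that share. The Myc, Max, Mxd and Mlx network had 8 of 59 (13.6%), namely 3 near Myc and 1 each near Mga, Mlxip, Mnt, Mxi1 and Zbtb17. Of the 59 Myc regions 34 had Myc as their nearest gene. The Mxi1 region, near a gene for a Max partner that opposes Myc, had 103 tags and 7.62-fold and held CACGTG. The Mnt region had 68 tags and 8.04-fold and lay in the 3′ UTR of Mettl16. TGF-beta and BMP signalling genes had 13 of 182 (7.14%), with Smad7 (12.16-fold), Id2 (9.02-fold) and Tgfb2 (8.05-fold) the highest.

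The other lists had few such regions each. Their shares are given beside the 5.34% of all Myc regions, without a test. Actin cytoskeleton and focal adhesion genes had 10 of 173 Myc regions (5.78%), with Palld (6.75-fold) and Dstn (6.72-fold) the highest. YAP, TAZ and TEAD genes had 6 of 116 (5.17%), among them Tead1 (7.08-fold). Fibroblast matrix and collagen genes had 8 of 189 (4.23%), with Col5a2 (6.76-fold) the highest. Receptor kinase and feedback genes had 6 of 127 (4.72%), among them Spred1 (8.93-fold) and Spry1 (7.08-fold). Immediate-early genes had 4 of 123 (3.25%), near Egr3, Jun and Klf4. Cell cycle genes had 6 of 72 (8.33%), among them Cdk6 (8.05-fold) and Ccnd1 (5.65-fold), and circadian clock genes 3 of 48 (6.25%), led by Bhlhe40 (9.88-fold). Markers of other cell types had few Myc regions of any kind, so their shares rest on very few regions. They were 0 of 24 for B cells, 2 of 10 (20.0%) for T and myeloid cells, 3 of 23 (13.0%) for neurons and 2 of 9 (22.2%) for hepatocytes. A separate, shorter set of markers was read for RNAPII at promoters at 0 min. It was called at 12 of 13 fibroblast markers (not at Thy1), 0 of 10 B cell markers, 0 of 6 epithelial markers and 1 of 7 T and myeloid markers, Cd14. In the longer lists it was called at 2 of 20 B cell, 3 of 19 T and myeloid, 3 of 19 neuronal and 0 of 19 hepatocyte genes. Fibroblast matrix and collagen genes had it at 18 of 30. By these counts the cells fit their label.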

How the data were processed

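The submitters' processing notes name BWA 0.6.2-r126 and the mm9 build. Myc and narrow RNAPII peaks were called per library against a control by MACS 1.4.2 with a p cutoff of 1e-08, per the file headers. The broad RNAPII and the Miz1 lists came from MACS 2.0.9, with a p cutoff of 0.01 for fibroblast Miz1, per the file headers. Tags are raw counts, the score is a log10-scaled p multiplied so that 80 stands for the cutoff, fold enrichment is a ratio to the control, and the false discovery rate is a percent, all as the authors' caller deposited them. The Miz1 lists also hold −log10 p and the pileup signal, as deposited. These values rank peaks within a list only.

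Lists were merged and overlapped in Python 3.11.15 at 1 bp, with GENCODE vM1 on NCBIM37. All peak ends of the Myc lists lay within its chromosomes. Promoters are 1000 bp either side of a TSS, and motifs were searched in 201 bp on both strands (pysam 0.24.0). Sequences come from the NCBIM37 genome. The code was tested on simulated lists. The members, the gene lists and the rules for named regions were chosen with earlier results of these data known. Regions are named by the nearest protein-coding TSS. Named regions are the 12 with the most tags, the 10 of highest fold, the 8 at protein-coding promoters, 8 with CACGTG, 6 with Miz1 and 6 with RNAPII at 2 h and not 0 min of highest fold, those of the 6 genes with the most regions (ties by symbol), and examples of each gene list. Of 383 listed symbols 379 matched. The input library was not analysed here other than as the caller's control. One named region is not reported here.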

Additional observations from a re-analysis of the deposited data

How the results depend on the processing

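Each group has 1 library, so nothing could be left out by replicate. No paired analysis was possible because each group holds 1 library. Of the 14 alternatives for the number of regions, 10 stayed within 1.5 times of 1567. It was 767 with a score of at least 100 asked of the 2 h list alone, 677 with peaks at or above the median fold of each list, 223 with equal numbers from every list, and 24 with equal numbers from the 2 h list alone. The promoter share was 10.7% within 500 bp, 19.1% within 2000 bp, 10.7% for protein-coding TSSs and 17.4% where the whole peak counted. The CACGTG share was 5.11% within 50 bp, 11.5% within 250 bp, 19.1% in the whole peak, 10.0% with CACGCG added and 5.82% in the 395 regions with the most tags. RNAPII overlap at 2 h was 6.38% in the broad list and 15.7% in those 395 regions, and the lists of 10 and 20 min gave 15.9% and 18.4%. Miz1 overlap was 2.23% at −log10 p of at least 5, 2.74% with summits within 200 bp, 1.08% in B cells and 5.32% in those 395 regions. Leaving out chromosome 15, added after the data had been seen, kept all 4 shares within their intervals. Widths differ by construction. Weak peaks lie close to the cutoff, so a missing call at another time is not a measured absence.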

Other observations

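Chromosome 15 stood apart in the other fibroblast lists too, but by different measures, namely by tags for RNAPII and by number of peaks for Miz1. Narrow RNAPII peaks there had a median of 167 tags at 0 min, against 115 elsewhere, and 208 against 143 at 2 h. Of the fibroblast Miz1 peaks 9.48% (788 of 8310) lay on chromosome 15, and of the B cell Miz1 peaks 3.85% (173 of 4488). The cutoffs of the Miz1 lists differ, and median pileup was the same on and off chromosome 15 in each, at 9 in fibroblasts and 30 in B cells. The cause was not tested.

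Across the 1567 regions tags and fold enrichment ran against each other, with a Spearman rho of -0.24, while across all 27388 peaks of the 2 h list it was 0.84. Both are descriptions over peaks of 1 library, which share depth and control, and the score cutoff limits which pairs of values can occur. Regions called only at 2 h with the highest scores (117 to 296) had a promoter share of 18.6% (15.1 to 22.8), and those with the lowest (80.0 to 88.3) 12.8% (9.84 to 16.5). These are the ends of 4 groups by score, and their intervals overlap. The groups between them had promoter shares of 13.8% and 13.3%, from lower to higher score. The AP-1 motif stood at 34.8% in the lowest group, 26.5% and 31.1% in the next ones and 35.2% in the highest.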
